A study of Tupaia belangeri with 6 samples.

Results

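Voltage-gated sodium channels were followed through 7 subunit genes, 4 for pore-forming alpha subunits (SCN1A, SCN2A, SCN3A and SCN8A) and 3 for accessory beta subunits (SCN2B, SCN3B and SCN4B). The list was set with earlier results of these data known, and its members were matched by gene symbol. Of the 7 symbols, 4 were found among the 95863 loci measured in each animal, of which 22608 carried a symbol. SCN2A, SCN3A and SCN8A were found for the alpha subunits and SCN2B for the beta subunits, each at a single locus. No locus was labelled SCN1A, SCN3B or SCN4B, so these members have no values of their own. RNA came from the prefrontal cortex (PFC) of adult tree shrews (Tupaia belangeri), a small mammal related to primates, with 3 females (numbers 1, 3 and 4) and 3 males (numbers 1, 4 and 5). No treatment or genetic change was listed for either group. The study's sample sheet gives a greater age for every male, so sex and age cannot be told apart. Levels are in TPM, the abundance of a gene's transcripts per unit of their length, scaled to the library. They keep no sequencing depth, so no counting interval was computed.

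An alpha subunit forms the whole sodium pore and its voltage sensors, and its opening drives the rising phase of the action potential. SCN1A is known mainly from interneurons. SCN2A and SCN8A are the main alpha genes of excitatory neurons in the cortex, where both channels sit in the axon initial segment and SCN8A also fills the nodes of Ranvier. SCN3A is best known from the developing brain. Beta subunits are single-pass membrane proteins that shift gating and move channels to the cell surface, and SCN2B and SCN4B are linked to the alpha subunit by a disulfide bond.

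SCN2B was the highest of the found subunit genes, at 300.2, 331.0 and 243.2 TPM in females 1, 3 and 4 and 261.7, 273.0 and 244.6 TPM in males 1, 4 and 5. Its mean was 275.6 ± 34.3 TPM (SD, n = 6 animals), above 98.2% of the genes tested. It also varied least, with a coefficient of variation of 12.5% and a 1.36-fold range between the extreme animals. SCN2B lies on the minus strand of chromosome 9 at 9000665-9013305 in the genome build TS_3.0, and every position given for a measured locus is on that build.

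SCN2A, on the plus strand of chromosome 1 at 146719607-146875708, was the highest alpha gene. Its level was 91.4, 113.5 and 71.2 TPM in females 1, 3 and 4 and 175.8, 76.1 and 118.5 TPM in males 1, 4 and 5, a mean of 107.8 ± 38.4 TPM (SD, n = 6). Male 1 stood highest and female 4 lowest, 2.47-fold apart, and the coefficient of variation was 35.7%.

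SCN8A, on the minus strand of chromosome 6 at 49211797-49407123, came next with 58.1, 78.4 and 48.2 TPM in females 1, 3 and 4 and 44.2, 62.7 and 63.0 TPM in males 1, 4 and 5. Its mean was 59.1 ± 12.2 TPM (SD, n = 6) and its coefficient of variation 20.6%. Male 1, the animal with the highest SCN2A, had the lowest SCN8A.

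SCN3A was the lowest, with 19.0, 40.5 and 15.7 TPM in females 1, 3 and 4 and 25.7, 26.7 and 23.7 TPM in males 1, 4 and 5. The 3 males lay close together, while the females held both the highest and the lowest animal. The mean was 25.2 ± 8.56 TPM (SD, n = 6), still above 80.4% of the genes tested. SCN3A lies on the minus strand of chromosome 1 at 146544370-146711142, 8464 bp from SCN2A, and the pair point away from each other.

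**Figure D1:**
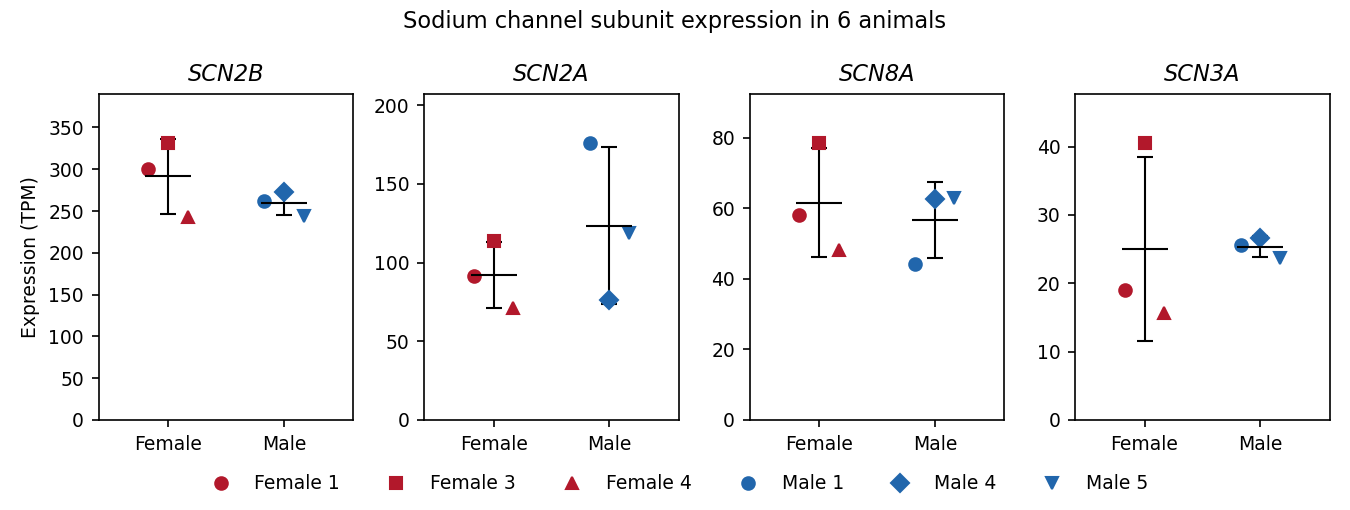
Expression in TPM (vertical axes, each starting at 0) of the 4 sodium channel subunit genes found, by sex. Each point is 1 animal, and bars give the mean ± SD of 3 animals. Females and males overlap for every gene, SCN2B spans 243.2 to 331.0 TPM, and male 1 is the highest animal for SCN2A at 175.8 TPM.

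The order SCN2B, SCN2A, SCN8A, SCN3A held within each of the 6 animals. SCN2B exceeded SCN2A by 1.42 ± 0.502 on the log2 scale (SD, n = 6; 2.67-fold), with a range of 1.49-fold in male 1 to 3.59-fold in male 4. SCN2A exceeded SCN8A by 0.82 ± 0.608 (1.77-fold), from 1.21-fold in male 4 to 3.98-fold in male 1. SCN8A exceeded SCN3A by 1.27 ± 0.344 (2.41-fold), from 1.72-fold to 3.07-fold. The pairs were formed by ranking the same values, so these ratios are a description and carry no test. Without male 1 the SCN2A excess over SCN8A was 0.59 on the log2 scale.

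Among the 3 alpha genes found, SCN2A held most of the transcripts, a mean of 55.2% ± 9.02 (SD, n = 6) of their summed TPM. SCN8A held 31.7% ± 7.14 and SCN3A 13.1% ± 2.92. The shares of SCN2A in females 1, 3 and 4 were 54.2%, 48.8% and 52.7%, and those in males 1, 4 and 5 were 71.6%, 46.0% and 57.8%. Male 1 again stood apart, since SCN8A made up 18.0% of its alpha transcripts and 30.7% to 37.9% of those in the other animals. These shares leave out SCN1A, which had no named locus.

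**Figure D2:**
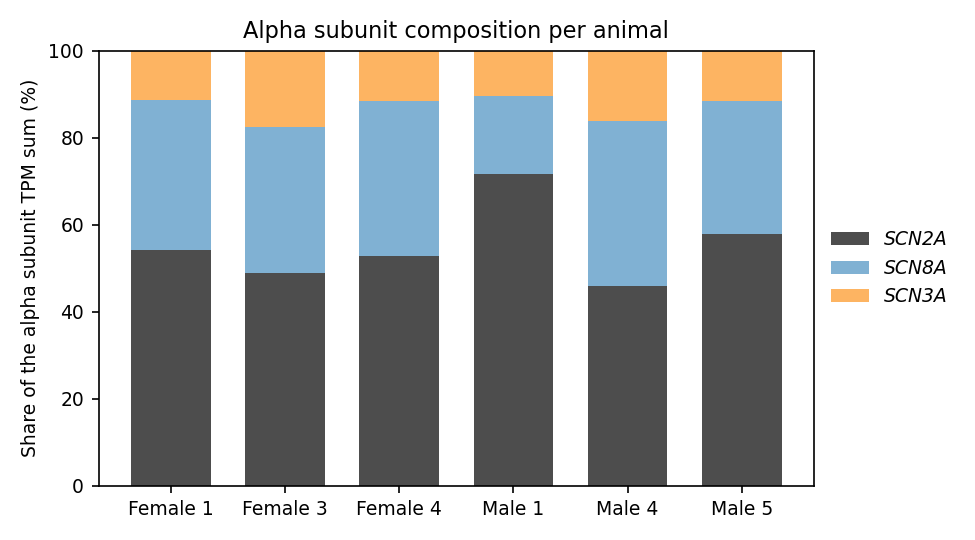
Share of SCN2A, SCN8A and SCN3A in the summed TPM of these 3 alpha genes (vertical axis, percent), with 1 stacked bar for each animal. SCN2A is the largest share in all 6 animals and reaches 71.6% in male 1, where SCN8A is 18.0%.

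SCN2B alone outnumbered the 3 alpha genes together in every animal, by a ratio of 1.49 ± 0.310 (SD, n = 6). Females 1, 3 and 4 had ratios of 1.78, 1.42 and 1.80, and males 1, 4 and 5 had 1.07, 1.65 and 1.19. SCN3A over SCN2A averaged 0.247 and SCN8A over SCN2A 0.602, with 0.251 for the latter in male 1. The planned ratios with SCN1A, SCN3B or SCN4B could not be formed.

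The assembler also reports coverage, the mean read depth over a gene (63.1 to 103.8 for SCN2A and 292.5 to 404.5 for SCN2B before scaling), and this gave a different picture of male 1. Coverage was scaled to TPM with the library's own ratio at loci without a strand, where TPM per unit of coverage was constant to within 1.0% at 100% of loci. For SCN2A, females 1, 3 and 4 had scaled coverage of 62.6, 79.8 and 50.4 while males 1, 4 and 5 had 71.5, 52.7 and 83.6, so male 1 was not the highest animal on this measure. TPM over scaled coverage of SCN2A was 2.46 in male 1 and 1.41 to 1.46 in the other 5 animals.

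For SCN8A the same ratio was 2.02 in female 3 and 1.74 to 1.79 in the others, and male 1 was the lowest animal by scaled coverage too, at 24.7. SCN3A varied without a single outlying animal, from 1.07 in female 1 to 1.64 in male 4. SCN2B was at 1.04 in all 6 animals, so its levels did not depend on which measure was read. The highest over the lowest ratio across animals was 1.74 for SCN2A, larger than in 91.9% of 11451 stranded genes with coverage of at least 1 in every animal, and 1.53 for SCN3A and 1.16 for SCN8A, against a median gene of 1.10. Read by coverage, the order of the 4 genes was unchanged, SCN2B over SCN2A was 2.01 on the log2 scale in place of 1.42, and SCN2B over the alpha sum was 2.29.

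**Figure D3:**
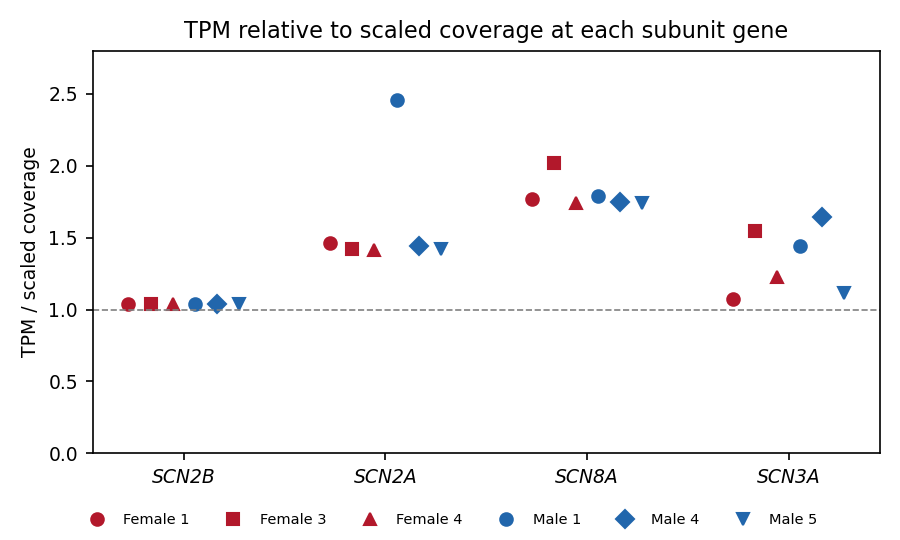
TPM divided by scaled coverage (vertical axis, no unit) at the 4 subunit genes, with 1 point for each animal and a dashed line at 1. SCN2B lies at 1.04 in all animals, and male 1 stands apart for SCN2A at 2.46.

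Sex was the comparison of the study, and none of the 4 subunit genes was called as different between females and males. Each difference is the mean log2(TPM + 1) of females minus that of males, tested with limma over all 28740 genes kept, at an adjusted p under 0.1 (Benjamini-Hochberg). In the same fit 0.0143% of autosomal genes were called, 4 of 27996, and 0 of the 4 subunit genes had an unadjusted p under 0.05, against 5.04% of autosomal genes. At the same threshold the study's own test, on read counts, called many more genes by sex. The absence of a call here therefore does not show equal levels. Females and males overlapped for all 4 subunit genes, while 9.81% of autosomal genes showed no overlap.

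SCN2A averaged 92.1 ± 21.1 TPM in females and 123.5 ± 50.0 TPM in males (SD, n = 3 each), a difference of -0.36 (SE 0.307, limma adjusted p = 0.926). Its 95% confidence interval ran from -1.07 to 0.34, so female levels from 0.478 to 1.26 times the male level lay within it. The difference was -0.070 without male 1, -0.67 without male 4 (limma adjusted p = 0.553) and -0.11 by scaled coverage, where male 1 was not the highest animal.

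SCN2B averaged 291.5 ± 44.6 TPM in females and 259.8 ± 14.3 TPM in males, a difference of 0.16 (SE 0.184, 95% confidence interval -0.26 to 0.57, limma adjusted p = 0.941). Its standard error was among the smaller ones, since 2.98% of autosomal genes had a lower one. SCN8A differed by 0.11 (SE 0.233, -0.42 to 0.64, limma adjusted p = 0.973), with 61.6 ± 15.4 TPM in females and 56.6 ± 10.7 TPM in males. SCN3A differed by -0.13 (SE 0.329, -0.88 to 0.62, limma adjusted p = 0.978), with 25.1 ± 13.4 TPM in females and 25.3 ± 1.51 TPM in males. The signs for SCN3A and SCN8A changed when single animals were left out.

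The shares and ratios also gave no call by sex. SCN2A made up 51.9% ± 2.79 of the alpha sum in females and 58.4% ± 12.8 in males, and SCN2B over the alpha sum was 1.67 ± 0.212 in females and 1.30 ± 0.308 in males (SD, n = 3 each). The SCN2A share difference of -6.51 percentage points was 0.047 without male 1, -12.7 without male 4 and -2.13 by coverage. Exact two-sided permutation of the sex labels gave p = 0.2 for SCN2B over the alpha sum and 0.5 or 0.6 for the other 5 values tested, the SCN2A share included, all 0.6 after adjustment over 6. With 3 animals against 3 this test cannot go under 0.1.

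The further channel genes with values above 0 were much lower than the subunit genes above. SCN7A, a channel known as a sensor of sodium level, was the highest of them at 7.73 ± 3.89 TPM (SD, n = 6), from 2.83 to 12.5 TPM. SCN9A, an alpha gene of sensory neurons, averaged 1.02 TPM and reached 2.14 TPM in male 5. SCN10A, another sensory neuron gene, stayed at or under 0.216 TPM and was not tested. SCN11A was listed at 0 in every animal, but so was the neuron marker NEFL, and a listed 0 is not read here as a level. SCN9A and SCN7A lie on chromosome 1 with SCN3A and SCN2A, in a cluster that spans 1495 kb from the start of SCN3A to the end of SCN7A.

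The other genes of the pathway were taken from a list of 40 channel, binding, anchoring and regulatory genes, of which 29 were found and 26 tested. Of these, 0 were called by sex and 0 had an unadjusted p under 0.05, against 0.0174% and 5.01% of all genes tested. Their female minus male differences ran from -0.64 to 0.49 with a median of -0.035, beside a median of -0.032 over all genes tested. A higher female mean of log2 values was seen in 11 and a higher male mean in 15.

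Fibroblast growth factor homologous factors bind the intracellular tail of alpha subunits, and all 4 were tested. FGF13, named here as the tested partner gene on the X chromosome, was not called (-0.17, limma adjusted p = 0.967). Of 744 X-linked genes, 0.134% were called and 3.76% had an unadjusted p under 0.05. FGF12 was the highest of them at 116.6 ± 15.4 TPM (SD, n = 6). Of the ankyrins and spectrins listed, 4 of 5 were tested (ANK2, ANK3, SPTAN1 and SPTBN1), and SPTBN4 was not found. SPTAN1, the alpha spectrin of non-erythroid cells, led them at 290.1 ± 43.6 TPM. ANK3, the ankyrin that gathers sodium channels at the initial segment, was at 49.0 ± 13.7 TPM and is named here after its values were seen.

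Among adhesion proteins of the initial segment and node, 6 of 7 were tested and CNTNAP1, which builds the paranodal junction, was highest at 271.8 ± 49.6 TPM. CNTNAP1 was lowest in male 1 at 174.5 TPM and at 271.1 to 312.6 TPM in the other animals. CNTNAP2 had the smallest unadjusted limma p of the partner genes, 0.115, with a difference of -0.64 (adjusted p = 0.925), and was named for that after the fit. Its level was 25.6 TPM in female 4, 70.4 and 72.3 TPM in the other females and 73.4 to 84.4 TPM in the males, so the difference lay mostly in female 4. Of the calmodulins, kinases, ligases and phosphatase genes, 4 of 10 were tested. PRKACA, a catalytic subunit of protein kinase A, which phosphorylates the channels, led them at 172.0 ± 33.0 TPM. RBFOX1, a splicing factor of neurons, led the remaining group of 6 tested genes at 248.8 ± 39.3 TPM.

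**Figure D4:**
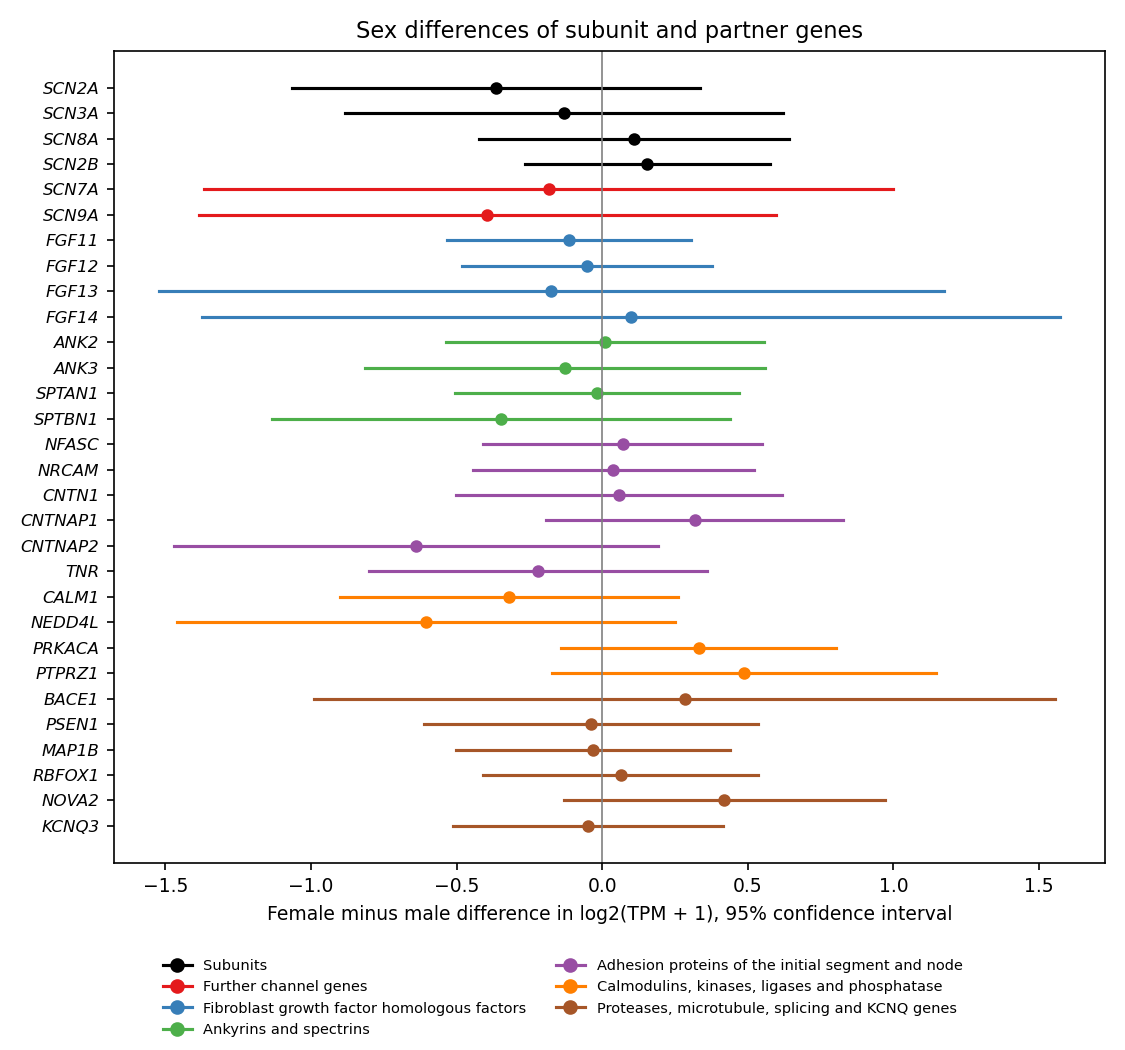
Difference of females minus males in log2(TPM + 1) (horizontal axis) for the 4 subunit genes and the 26 tested partner genes, coloured by group, with 95% confidence intervals from limma. Every interval includes 0, and the differences of the partner genes run from -0.64 to 0.49.

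The named gene most like each subunit gene across the 6 animals was sought among 7836 genes with a mean of at least 5.0 TPM, by the root mean square difference of centred log2(TPM + 1) values. PFKFB3, a regulator of glycolysis, was nearest to SCN8A at 0.0387, where the median gene was at 0.334. SUPT6H, a transcription elongation factor, was nearest to SCN2B at 0.0331, against a median of 0.291. ACER3, an alkaline ceramidase, was nearest to SCN2A at 0.0998 and shared its high value in male 1 (17.2 TPM, against 7.79 to 12.6 TPM in the others). ANKRD44 was nearest to SCN3A at 0.133. These are the closest of many genes over 6 points and carry no test.

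Few other loci overlapped the subunit genes. There were 10 in all, 5 at SCN3A, 3 at SCN8A, 2 at SCN2B and 0 at SCN2A, and 1 of them had a mean above 1.0 TPM. This was an unnamed plus-strand locus at 49407050-49428448 on chromosome 6, across the start of SCN8A, with a mean of 1.25 TPM and 3.87 TPM in male 1. No strand-specific protocol is named for the libraries, so reads of overlapping genes may be split between them. Beyond the 3′ end of SCN2A, 4 loci without a strand that start within 15 kb summed to 26.2 TPM in male 5 and 10.6 to 14.2 TPM in the others.

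Loci without a symbol were looked up near the expected neighbours of the missing members, and they were chosen after their values had been seen. No gene name is assigned to them here. The RefSeq annotation of another assembly (TupChi_1.0) lists 5 of the 7 members, and it places SCN4B between SCN2B and TMPRSS4 and SCN3B next to GRAMD1B. It gives no place for SCN1A. In other mammals SCN1A is known to lie between TTC21B and SCN9A, where RefSeq has a protein-coding gene without a standard symbol. In the tables the stretch between TTC21B and SCN9A holds an unnamed minus-strand locus at 147469878-147665488 on chromosome 1. Its level was 82.2, 100.8 and 56.9 TPM in females 1, 3 and 4 and 67.9, 72.7 and 113.1 TPM in males 1, 4 and 5, a mean of 82.3 ± 21.2 TPM (SD, n = 6). Of 3 unnamed loci with a strand in this stretch it was the 1 with a mean of at least 1 TPM. The sexes overlapped (-0.080, limma adjusted p = 0.984).

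Beside GRAMD1B, an unnamed plus-strand locus on a contig averaged 184.1 ± 27.9 TPM, from 137.7 to 213.4 TPM, and was not tested because contigs were outside the fit. A second unnamed locus there, on the minus strand, averaged 3.54 TPM. Between TMPRSS4 and SCN2B lay 2 unnamed loci on the minus strand of chromosome 9. The one at 8966764-8969940 was at 49.2, 42.3 and 19.8 TPM in females 1, 3 and 4 and at 41.3, 19.2 and 16.3 TPM in males 1, 4 and 5. Females 1 and 3 and male 1 were thus the 3 high animals. The one at 8970030-8994852 was lower, from 0.699 TPM in female 4 to 8.52 TPM in female 3. Neither was called by sex (limma adjusted p = 0.925 and 0.982).

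The 3 high animals of the first of these loci were also the highest for 3 of the 4 markers of striatal projection neurons found (RGS9, PDE10A and PENK), but not for DRD1. RGS9, a signalling regulator of the striatum, was at 48.0, 43.7 and 1.52 TPM in females 1, 3 and 4 and at 54.6, 0.355 and 0.392 TPM in males 1, 4 and 5. PDE10A, a striatal phosphodiesterase, was at 51.7 to 67.9 TPM in females 1 and 3 and male 1 and at 21.2 to 23.1 TPM in the others. DRD1, a dopamine receptor, was at 4.83 TPM in male 4, above male 1 at 4.02 TPM. The 4 found of 8 listed striatal markers summed, mostly through PENK, to 292.9 to 325.9 TPM in the first 3 animals and to 125.2 to 156.3 TPM in the others. The part of these markers in any subunit level was not tested, and SCN2B itself did not split the animals in this way.

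**Figure D5:**
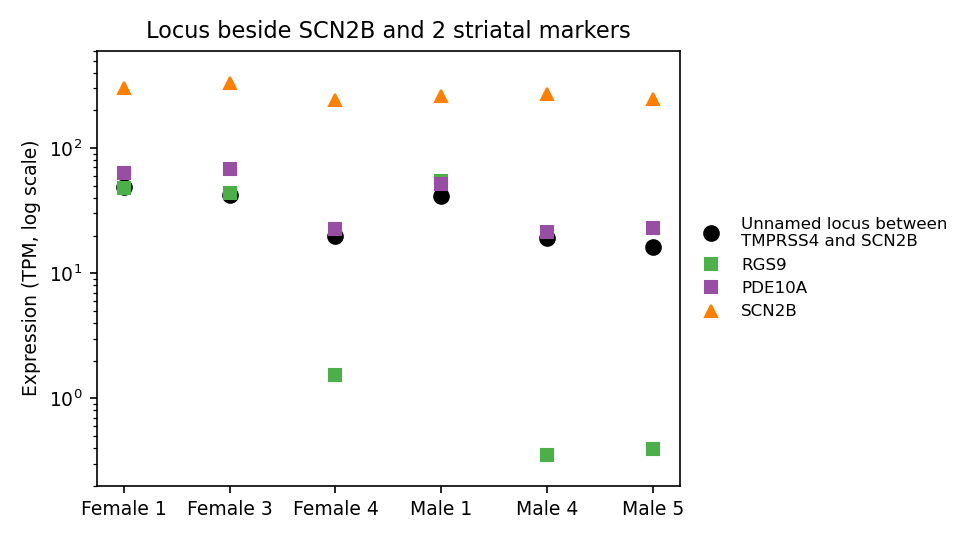
Expression in TPM (vertical axis, log scale) of the unnamed locus at 8966764-8969940 on chromosome 9, RGS9, PDE10A and SCN2B in each animal. The locus, RGS9 and PDE10A are higher in females 1 and 3 and male 1, at 41.3 TPM or more, than in the other 3 animals, and SCN2B spans 243.2 to 331.0 TPM.

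The labelled tissue was checked against marker lists, each summed in TPM. Neuron markers (4 of 5 found, NEFL listed at 0 in every animal) summed to 5369 to 6552 in females and 4520 to 6640 in males. Excitatory neuron markers (3 of 5) summed to 1987 to 3921 over the 6 animals and interneuron markers (6 of 6) to 1083 to 1328. Male 1 was lowest for the excitatory list through SLC17A7 and CAMK2A, while its NEUROD6 (110.2 TPM) was above all 3 females and its neuron sum was the highest. In bulk tissue fewer cells of a type and less RNA per cell cannot be told apart. Oligodendrocyte markers (MBP, MOG and MAG, 3 of 6 found) summed to 347.6 to 481.6 in females and 80.7 to 235.6 in males, without overlap, as in 1 of the 10 lists, where 9.81% of autosomal genes did not overlap. Of its 3 genes MAG alone separated the sexes (246.6 to 345.5 TPM in females, 63.4 to 145.6 TPM in males), and MBP and MOG overlapped. OLIG2, a transcription factor of the oligodendrocyte lineage and the largest part of the precursor list, also separated them (62.2 to 73.7 TPM in females, 26.2 to 53.1 TPM in males). The other precursor genes found overlapped: PDGFRA (5.30 to 17.3 TPM in females, 7.68 to 12.9 TPM in males) and VCAN (1.66 to 7.39 and 2.30 to 5.75 TPM). Astrocyte (5 of 5; 1404 to 2184), microglia (5 of 5; 107.5 to 174.0), endothelium (5 of 5; 324.7 to 491.1), oligodendrocyte precursor (3 of 4; 38.9 to 94.9) and muscle markers (5 of 5, CKM and MYL2 at 0; 12.8 to 24.7) overlapped as sums. The part of these differences in the subunit levels was not tested.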

How the data were processed

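RNA-seq of the PFC from 3 female and 3 male tree shrews was used. The authors enriched polyadenylated RNA, mapped reads with HISAT2 2.2.1 to TS_3.0, assembled and merged transcripts with StringTie 2.2.1, and measured each animal against the merged set without pooling. The deposited TPM values are per transcript length and library, the deposited FPKM values are a multiple of TPM within each library, and the deposited coverage values are mean depths without library scaling. Only coverage, FPKM and TPM were listed for each locus, so the DESeq2 test of the authors was not repeated, and the depth behind a value is known as mean coverage but not as a number of reads.

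Rows of 1 gene ID and chromosome were summed. A gene was kept if 3 or more animals reached 0.1 TPM, and the male-only segments (chromosome X from 4542400 to 6144400, chromosome 26 before 3132930) and contigs were left out. Female minus male differences of log2(TPM + 1) were fitted with limma 3.58.1 (R 4.3.3, mean-variance trend, no covariate), with Benjamini-Hochberg adjustment within autosomes and within X and a threshold of 0.1. The script was tested on simulated data. A fold change on this scale understates changes of low genes. Shares were compared by exact permutation of sex labels in Python 3.11.15. The planned sign-flip test of neighbouring genes is not reported, since the pairs come from ranking the same values. Members and gene lists were chosen with earlier results of these data known. A partner gene of the list is not reported here and was left out of its counts. Named genes were all members, further channel genes, partner genes with an unadjusted p under 0.05 or the highest mean of their group, the nearest gene of each member, and overlapping loci above 1.0 TPM. Alternatives were other pseudocounts, filters, scalings, FPKM, coverage, a replicate block, limma without trend, joint adjustment, and each animal left out. Scaled coverage was added after the data were seen.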

Additional observations from a re-analysis of the deposited data

Results flagged for a closer look

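The 6 animals, taken as 1 group, were searched for single values far from the rest in 21 quantities, and 6 were marked. Chance marks about 1 in 20 of independent quantities. These 21 reuse the same TPM values in shares and ratios, so the number marked cannot be set against that rate. Male 1 gave 3 of them: SCN8A was 18.0% of the alpha sum, the lowest animal, log2 SCN2A over SCN8A was 1.99, the highest, and SCN2A TPM over scaled coverage was 2.46, the highest. SCN8A TPM over scaled coverage was highest in female 3 at 2.02. SCN2B TPM over scaled coverage was lowest in male 4 at 1.037, in a range so narrow that all animals round to 1.04. SCN9A was highest in male 5 at 2.14 TPM, the animal with the largest share of TPM at loci without a strand (7.88%, against 2.30% to 5.16% in the others).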

How the results depend on the processing

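None of the 4 subunit genes was called under any of the 19 alternatives run. SCN2A stayed below 0 (-0.67 to -0.070, lowest limma adjusted p = 0.553) and SCN2B above 0 (0.016 to 0.28) in all 19. The filters, limma without trend, joint adjustment and unsummed rows could not move these estimates, so their agreement was fixed in advance. SCN3A changed sign in 2, to 0.000251 without female 1 and 0.13 without female 4, and SCN8A in 2, to -0.077 without female 3 and -0.057 without male 1, in which fewer samples enter the fit. With 1 animal left out SCN3A ran from -0.52 to 0.13 and SCN8A from -0.077 to 0.27. SCN2B over the alpha sum had a mean of 2.29 by coverage, against 1.49 by TPM. Over all genes, 4 autosomal and 1 X-linked genes were called by limma. Autosomal calls were 0 without the trend (1461 at an unadjusted p under 0.05) and 2 with the replicate block, and X-linked calls were 2 with quantile normalization, the stranded genes alone, median-ratio scaling or a minimum of 1 TPM. With 1 animal left out, autosomal calls ran from 2 (without female 1, female 3 or male 5) to 5 (without male 1) and X-linked calls from 1 to 2 (without female 1 or male 4). The cause was not tested. The animals share only the numbers 1 and 4 between sexes, and their deviations correlated at 0.00098 and 0.038. Animals with different numbers correlated at -0.059 to 0.063. With so few animals this cannot tell whether a shared number marks a pair. With the block, female 3 and male 5 have no counterpart, so its sex differences rest on females 1 and 4 and males 1 and 4. These were -0.52 for SCN2A, -0.57 for SCN3A, 0.0072 for SCN8A and 0.016 for SCN2B. No subunit gene was called with it, but so few animals leave little room for a call. The order of the genes kept its direction. Sex differences of shares and ratios, none of them called, turned without male 1 for the SCN2A share (-6.51 to 0.047 points), SCN3A share (0.738 to -0.393), SCN3A over SCN2A (0.030 to -0.013) and SCN8A over SCN2A (0.132 to -0.0096, and 0.034 by coverage), and without female 3 for the SCN3A share (-1.25) and SCN3A over SCN2A (-0.018). TPM keeps no depth, so counting error at low genes such as SCN9A and SCN10A has no interval.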
